A study of Mus musculus with 6 samples.

Results

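CD4 and CD8 T cells of the ischemic mouse kidney were compared gene by gene. The cells came from 2 libraries, IR CD4 and IR CD8, which were 2 of 6 in the study, and were chosen as barcodes with at least 500 detected genes, at most 20% mitochondrial unique molecular identifiers (UMIs, the counted molecules) and at least 1 UMI summed over Cd3d, Cd3e and Cd3g. This left 10301 IR CD4 cells and 6413 IR CD8 cells, together 16714 of the 49177 cells that passed the same filters in all 6 libraries. The mice were wild-type C57BL/6J males aged 7 to 8 weeks. In the IR group both renal pedicles were clamped for 30 min and then released, and injury was followed by serum creatinine at 24 h, whereas control kidneys were normal. Kidney mononuclear cells were stained, and live CD45+ T cell receptor β+ cells were sorted on surface CD4 or CD8α. Each group gave 1 library, the number of mice behind each is not given in the sources used here, and no difference below has a replicate check. Intervals are exact 95% intervals and cover counting error only.

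CD4 and CD8 T cells carry the same αβ receptor but read different ligands. The CD4 coreceptor binds MHC class II and the CD8 coreceptor, a dimer of the products of Cd8a and Cd8b1, binds MHC class I. CD4 cells act as helper and regulatory cells through cytokines and contact molecules such as CD40 ligand, and CD8 cells kill target cells with granzymes and perforin and release inflammatory chemokines. T cells enter the kidney after ischemia and have been tied to injury and to repair in that organ.

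The IR CD4 library held 10878 barcodes and the IR CD8 library 7956. Kept cells had a median of 2441 UMIs in IR CD4 and 1827 in IR CD8, and ribosomal protein genes took 35.3% and 42.1% of them. UMIs were summed over the kept cells of each library and scaled to CPM, UMIs per 1000000 retained UMIs, after mitochondrial genes, ribosomal protein genes and Malat1 had been taken out, which left totals of 17566188 and 7385782 UMIs. A count of 3 UMIs, used as the floor for genes with none, equals 0.171 CPM in IR CD4 and 0.406 CPM in IR CD8. The 2 libraries shared 168 barcode sequences, 19 of them among kept cells.

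The sort markers followed the labels. Cd4 (chromosome 6, 124864692 to 124888221) stood at 147 CPM (141 to 153) in IR CD4 and 0.406 CPM (0.0838 to 1.19) in IR CD8, from 2581 and 3 UMIs. Cd8a (chromosome 6, 71373427 to 71379173) had no UMI in IR CD4 and 2995 UMIs in IR CD8, 406 CPM (391 to 420.3). With the floor of 3 UMIs in place of 0, Cd8a was 2374-fold higher in IR CD8. The upper 95% limit of its log2 ratio was -10.91. Cd8b1 (chromosome 6, 71322788 to 71337494) was at 5.81 CPM (4.73 to 7.05) in IR CD4 and 1121 CPM (1097 to 1145) in IR CD8, 193-fold higher in the CD8 sort. The Cd8b1 UMIs of IR CD4 lay in 100 cells with at most 2 UMIs each. The receptor constant genes Trac and Trbc1 were at 980.2 and 852 CPM in IR CD4 and 849 and 865 CPM in IR CD8, so both sorts held T cells at similar levels of receptor RNA. Coreceptor RNA was sparse in single cells. In IR CD4, 19.6% of cells (18.9 to 20.4) had a Cd4 UMI and none of Cd8, and 79.4% had neither, whereas in IR CD8 72.0% (70.9 to 73.1) had a Cd8 UMI alone and 28.0% neither. Cells with UMIs of both were 27 of 10301 and 3 of 6413.

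Of 8774 genes at 10 CPM or more in the higher library, 313 were at least 2-fold higher in IR CD4 (3.57%) and 333 at least 2-fold higher in IR CD8 (3.8%), 7.36% together. The remainder of the transcriptome was close between the subsets, with 7327 genes (83.5%) within 1.5-fold and a median log2 ratio of CD4 over CD8 of 0.09 over all genes. Large differences were more often on the CD4 side. At 4-fold or more there were 86 genes higher in CD4 and 56 in CD8, at 8-fold 36 and 19, and at 16-fold 16 and 10. A summed level does not tell fewer positive cells from less RNA per cell. With the interval of the ratio wholly beyond 2-fold, 198 and 243 genes remained. CD4 genes made up 48.5% of the calls, and 64.1% when the removed features were kept in the total, a scaling that raised the median log2 ratio by 0.16.

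**Figure D1:**
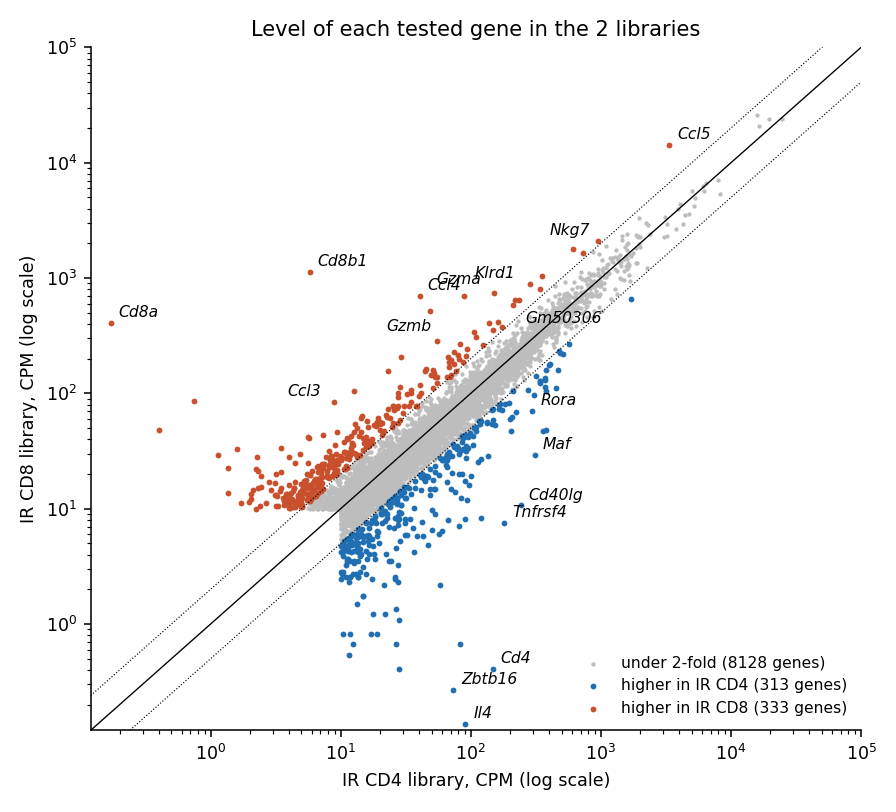
Levels of all genes at 10 CPM or more in IR CD4 (horizontal axis, CPM, log scale) and IR CD8 cells (vertical axis, CPM, log scale), 1 point per gene, with a level of 0 drawn at the floor of 3 counts, called genes in colour and dotted lines at 2-fold. Cd8a (2374-fold against the floor) and Cd8b1 (193-fold) lie far on the CD8 side. Il4 (1600 and 1 UMIs, log2 interval 6.91 to 14.70) and Cd4 (2581 and 3 UMIs, 6.95 to 10.78) lie far on the CD4 side. Of 8774 genes, 7327 lie within 1.5-fold.

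Of 5 CD4 lineage genes 4 were higher in IR CD4 and none in IR CD8, and of 6 CD8 lineage genes 5 were higher in IR CD8 and none in IR CD4, with median log2 ratios of 2.89 and -3.83 against 0.09 over all genes. These lists hold the genes of the sort markers, and without them 3 of 4 CD4 and 3 of 4 CD8 lineage genes were called. Zbtb7b, which encodes ThPOK, the factor that commits thymocytes to the CD4 lineage, was at 43.3 CPM (40.2 to 46.5) in IR CD4 and 5.82 CPM (4.21 to 7.84) in IR CD8. Runx3, the matching CD8 lineage factor, was at 163 and 414 CPM, 2.54-fold higher in CD8, and its relative Runx1 went the other way at 469 and 160.2 CPM. Eomes, a T-box factor of cytotoxic and memory cells, was 20.7-fold higher in CD8 (1.59 and 33 CPM), and Crtam, an adhesion receptor of activated cytotoxic cells, 9.75-fold (3.47 and 33.8 CPM). The call for Gata3, the type 2 helper factor, was marginal at 2.04-fold (212 and 104 CPM) and fell under 2-fold in 6 of 15 alternatives.

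Killing genes were higher in IR CD8 for 6 of 12 members of the cytotoxic granule list, and none was higher in IR CD4 (median log2 ratio -1.12). Gzma (chromosome 13, 113093825 to 113100981), the gene of the tryptase granzyme A, was at 88.1 CPM (83.8 to 92.6) in IR CD4 and 705 CPM (686 to 725) in IR CD8, 8.00-fold higher. Gzmb, which encodes the caspase-activating granzyme B, was at 55.0 CPM (51.6 to 58.6) in IR CD4 and 283 CPM (271 to 296) in IR CD8. Gzmk and Gzmm, further granzymes, were 4.03- and 7.40-fold higher in CD8. The pore-forming perforin gene Prf1 (9.11 and 35.3 CPM) and the granule membrane gene Nkg7 (609 and 1790.1 CPM) were also higher in CD8. Not every member followed. Fasl, the death receptor ligand, was at 83.4 CPM in CD4 and 49.7 in CD8, and the granzyme inhibitor Serpinb9 at 77.4 and 40.1 CPM. Gzma RNA of IR CD4 sat in few cells, since 97.7% of its UMIs came from the top 1% of cells, against 48.7% in IR CD8. Gzmb and Gzmk were spread more widely, with 61.8% and 41.7% of Gzmb and 46.8% and 23.7% of Gzmk UMIs in the top 1%.

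Of 6 chemokine genes at 10 CPM, 3 were higher in CD8 and 2 in CD4 (median log2 ratio -1.05). Ccl5 (chromosome 11, 83525778 to 83530518), a chemokine gene of effector and memory T cells, was at 3357 CPM (3329 to 3384) in IR CD4 and 14270.3 CPM (14184 to 14357) in IR CD8, 4.25-fold higher. Ccl4 and Ccl3, the neighbouring genes of macrophage inflammatory protein 1β and 1α on chromosome 11, were 17.2-fold (40.6 and 698 CPM) and 9.53-fold (8.88 and 84.6 CPM) higher. In IR CD4, 88.5% of the Ccl4 UMIs came from the top 1% of cells, against 28.1% in IR CD8. Xcl1 and Ccl1 went the other way. Xcl1, which attracts cross-presenting dendritic cells, was at 473 and 232 CPM, 2.04-fold higher in CD4. Ccl1, a CCR8 ligand, was at 57.8 and 2.17 CPM, but 680 of its 1015 CD4 UMIs came from 1 barcode, and without the top barcode of each library it was at 19.1 and 0.68 CPM.

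RefSeq (GRCm38.p6) start-site windows of 250 bases before to 50 after the start are shown for genes named above and for Il4, which is described next, so that the sequence ahead of coreceptor, granzyme, chemokine and cytokine genes can be read beside their levels. Capitals mark the RUNX motif TGTGGT and the T-box motif TCACAC, searched on both strands, and TTCAAAG of TCF/LEF factors was searched too. The windows lie at chr6:71373177-71373476 (Cd8a, plus strand), chr11:83649329-83649628 (Ccl3, minus strand), chr13:113100932-113101231 (Gzma, minus strand), chr14:56262285-56262584 (Gzmb, minus strand) and chr11:53618616-53618915 (Il4, minus strand).
Cd8a: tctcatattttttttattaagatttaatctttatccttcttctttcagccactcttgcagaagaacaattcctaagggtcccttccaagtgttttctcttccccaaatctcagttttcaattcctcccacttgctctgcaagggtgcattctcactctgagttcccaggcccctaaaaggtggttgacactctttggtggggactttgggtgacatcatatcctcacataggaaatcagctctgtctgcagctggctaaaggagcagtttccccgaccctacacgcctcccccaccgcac
Ccl3: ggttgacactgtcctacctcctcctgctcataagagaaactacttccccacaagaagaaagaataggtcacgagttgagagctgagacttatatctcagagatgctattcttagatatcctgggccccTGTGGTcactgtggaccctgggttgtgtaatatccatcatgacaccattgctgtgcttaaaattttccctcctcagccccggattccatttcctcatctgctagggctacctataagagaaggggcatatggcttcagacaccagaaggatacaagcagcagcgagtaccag
Gzma: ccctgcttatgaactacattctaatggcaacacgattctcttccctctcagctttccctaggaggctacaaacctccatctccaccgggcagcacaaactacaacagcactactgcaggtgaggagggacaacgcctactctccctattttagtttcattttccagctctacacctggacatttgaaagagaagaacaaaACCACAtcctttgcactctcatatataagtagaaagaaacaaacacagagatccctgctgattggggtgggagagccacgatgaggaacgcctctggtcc
Gzmb: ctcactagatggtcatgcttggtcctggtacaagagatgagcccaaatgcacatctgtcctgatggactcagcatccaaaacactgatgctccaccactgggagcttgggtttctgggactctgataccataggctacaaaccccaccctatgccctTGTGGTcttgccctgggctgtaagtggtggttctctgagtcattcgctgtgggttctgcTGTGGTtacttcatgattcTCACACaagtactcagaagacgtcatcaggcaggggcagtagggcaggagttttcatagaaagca
Il4: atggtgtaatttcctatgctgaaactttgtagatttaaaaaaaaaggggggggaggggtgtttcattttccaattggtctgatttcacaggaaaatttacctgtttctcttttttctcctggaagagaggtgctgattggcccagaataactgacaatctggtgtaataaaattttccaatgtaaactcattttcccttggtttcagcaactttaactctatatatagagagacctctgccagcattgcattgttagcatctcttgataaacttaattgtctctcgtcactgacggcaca
The RUNX motif stood 122 bases before the start in Ccl3, 50 bases before it on the opposite strand in Gzma, and 93 and 34 bases before it in Gzmb, where the T-box motif followed at 15 bases. No printed match overlaps another. None of the 3 motifs was in these windows of Cd8a and Il4. Matches were not limited to genes higher in CD8, since a window of Klrb1c and a window of Asb2 held the RUNX motif and a window of Ly6c1 the T-box motif, and all 3 genes were higher in CD4. Over all 32851 mouse windows of this length 16.8% held the RUNX motif, 14.5% the T-box motif and 5.14% the TCF/LEF motif, so a match is common and is a description of letters only. A window was at hand for 18 of 31 genes in the leading set, and for 73.8% and 66.1% of the genes called higher in CD4 and in CD8, too few for a comparison of motif shares between the calls.

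Natural killer type receptors divided between the subsets. Of 15 listed, 11 reached 10 CPM, 3 were higher in CD8 and 1 in CD4 (median log2 ratio -0.02). Klrd1, which encodes the CD94 subunit shared by the NKG2 receptors, was at 151 CPM (146 to 157) in IR CD4 and 738 CPM (718 to 758) in IR CD8. Cd160 was at 27.6 and 101 CPM and the Ly49 family gene Klra7 at 2.11 and 14.6 CPM, 3.67- and 6.94-fold higher in CD8. Klra7 shares sequence with other Ly49 genes and is uncertain for that reason. Klrb1c, the gene of NK1.1, was the exception at 67.3 CPM in CD4 and 7.99 CPM in CD8, 8.43-fold higher in CD4. Klrk1, the activating NKG2D receptor, was at 113 and 88.7 CPM and Klrc1, the inhibitory NKG2A receptor, at 57.0 and 79.2 CPM, neither past 2-fold. Of the 5-gene NK cell list, summed at 160 and 747 CPM, Klrb1c was higher in CD4 and Gzma and Eomes in CD8, and the defining Ncr1 had 8 and 2 UMIs.

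Of 18 listed cytokines 11 reached 10 CPM, 5 were higher in IR CD4, none was higher in IR CD8 and 6 were not called (median log2 ratio 0.81). Il4 (chromosome 11, 53602982 to 53618669), the type 2 helper cytokine, had 1600 UMIs in IR CD4 and 1 in IR CD8, 91.1 CPM (86.7 to 95.7) and 0.135 CPM (0.00343 to 0.754), a log2 ratio of 9.39 (6.91 to 14.70). Areg, an epidermal growth factor family ligand of tissue repair, was 21.2-fold higher (17.2 and 0.812 CPM), Csf2, the granulocyte-macrophage growth factor gene, 10.2-fold (26.3 and 2.57 CPM) and Tnfsf11, the RANK ligand gene, 6.69-fold (23.6 and 3.52 CPM). Lta, the lymphotoxin α gene, was 2.26-fold higher. Ifng, the macrophage-activating cytokine made by both subsets, was closer, at 642 CPM (630.1 to 654) in IR CD4 and 386 CPM (372 to 400.0) in IR CD8, and Tnf was at 78.6 and 54.7 CPM. Under 10 CPM were Il5, Il10, Il13, Il17a, Il17f, Il21 and Il22, of which Il22 had 90 UMIs and Il13 42 UMIs in IR CD4 and none in IR CD8.

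Zbtb16, which encodes PLZF, a factor of innate-like T cells, was at 73.2 CPM (69.3 to 77.3) in IR CD4 and 0.271 CPM (0.0328 to 0.978) in IR CD8, from 1286 and 2 UMIs. Its cells overlapped with Il4. With each cell thinned to 500 UMIs, 47 of 337 Zbtb16+ IR CD4 cells, 13.9% (10.4 to 18.1), had an Il4 UMI, against 3.86% (3.49 to 4.26) of cells without Zbtb16, at median depths of 1537 and 1475.5 retained UMIs. Unthinned, the shares were 33.9% and 8.33%, at 1740 and 1456 retained UMIs. A Ccr7 UMI, a mark of recirculating cells, was in 1.48% (0.483 to 3.43) of Zbtb16+ and 10.7% (10.1 to 11.3) of other cells, and Klrb1c in 4.75% (2.74 to 7.6) and 3.02% (2.69 to 3.38). The Klrb1c intervals overlap when thinned but not unthinned, at 18.2% (15.8 to 20.8) and 7.15% (6.63 to 7.69). Of the invariant NKT list beside Zbtb16, Trav11 had 40 UMIs in IR CD4 and none in IR CD8, and Trav11d was at 0 in both. The 7-gene gamma delta T list also moved with the CD4 sort, with 4 of 7 at 10 CPM and all 4 higher in CD4. Its summed level was 103 and 21.8 CPM, mostly from Tcrg-C1, Tcrg-C2, Tcrg-C4 and Trgv2, while the defining Trdc had 60 and 32 UMIs and Trdv4 and Sox13 2 UMIs each in IR CD4. The sort was on T cell receptor β, and the source of the gamma and delta chain RNA was not tested. The part of innate-like cells in the Il4 and Zbtb16 levels was not tested.

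Cd40lg (chromosome X, 57212143 to 57224042), the CD40 ligand that licenses B cells and antigen-presenting cells, was at 242 CPM (235 to 249.5) in IR CD4 and 10.7 CPM (8.47 to 13.3) in IR CD8, 22.6-fold higher in CD4. Of 12 costimulatory genes 5 were higher in CD4, none was higher in CD8 and 7 were not called (median log2 ratio 0.78). These were Cd40lg, Tnfrsf4 (OX40, 180.3 and 7.58 CPM), Tnfrsf18 (GITR, 375 and 113 CPM), Icos (339 and 129 CPM) and Tnfrsf9 (4-1BB, 104 and 42.5 CPM). Cd28 itself was at 533 and 335 CPM, under 2-fold. Coinhibitory receptors went both ways, 3 higher in CD4 and 2 in CD8 of 9 at 10 CPM. Cd200 (3.88-fold), Btla (2.20-fold) and Cd101 (2.18-fold) were higher in CD4, and Cd160 and Lag3 (2.84-fold, 4.67 and 13.3 CPM) in CD8. Pdcd1, which encodes PD-1, was at 31.4 CPM (28.8 to 34.1) in IR CD4 and 22.6 CPM (19.3 to 26.3) in IR CD8.

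Regulatory T cell genes were higher in IR CD4 for 8 of the 10 list members at 10 CPM, with none higher in CD8 and a median log2 ratio of 1.74. Foxp3, the factor that defines regulatory T cells, was at 28.2 CPM (25.8 to 30.8) in IR CD4 and 0.406 CPM (0.0838 to 1.19) in IR CD8, from 496 and 3 UMIs. Il2ra, the interleukin 2 receptor α chain, was at 59.7 and 6.36 CPM and Izumo1r, the folate receptor 4 gene, at 99.9 and 19.2 CPM. Ikzf2, which encodes Helios, was 3.35-fold higher, Nrp1 2.11-fold and Capg 2.64-fold. Ctla4 was at 250.5 and 139 CPM and Ikzf4 at 22.8 and 12.7 CPM, both under 2-fold. Single genes of this kind were more frequent in Foxp3+ cells. Thinned, Ikzf2 was found in 43.2% (34.6 to 52.1) of 132 Foxp3+ cells against 6.21% (5.75 to 6.70) of the rest, and Tnfrsf4 in 30.3% (22.6 to 38.9) against 5.84% (5.39 to 6.31), at median depths of 1467 and 1478 retained UMIs. Il2ra was in 6.06% (2.65 to 11.6) against 2.27% (1.99 to 2.58). Unthinned, Ikzf2 was in 72.6% and 13.8%, at 1693.5 and 1473 retained UMIs. Il4 was in 1 of 132 Foxp3+ cells, 0.758% (0.0192 to 4.15), and 4.24% (3.86 to 4.65) of the rest.

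Of 12 genes of naive or recirculating cells 3 were higher in IR CD8, none was higher in IR CD4 and 9 were not called (median log2 ratio -0.41). Ccr7, the receptor for lymph node entry, was at 237 CPM (229.7 to 244) in IR CD4 and 643 CPM (625 to 662) in IR CD8. Dapl1 was 3.23-fold higher (106 and 343 CPM). Actn1 was at 2.03-fold, a call that fell under 2-fold in 6 of 15 alternatives. The factors Lef1 (419.8 and 605 CPM), Tcf7 (356 and 438 CPM) and Klf2 (1949 and 3288 CPM) lay under 2-fold, and so did 3 members with ratios on the CD4 side, the interleukin 7 receptor gene Il7r (844 and 709 CPM), Igfbp4 (213 and 143 CPM) and Satb1 (589 and 522 CPM).

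Among chemokine and sphingosine receptors, 3 of 13 at 10 CPM were higher in CD4 and 2 in CD8 (median log2 ratio 0.08). Ccr4 (12.5 and 0.677 CPM) and Ccr8 (10.4 and 0.812 CPM), receptors of type 2 and regulatory cells, were 18.5- and 12.8-fold higher in CD4, and Ccr2, the receptor for inflammatory recruitment, 2.15-fold. S1pr5, a sphingosine receptor of circulating cytotoxic cells, was 2.58-fold higher in CD8 beside Ccr7. The receptors Cxcr3 (146 and 81.0 CPM) and Cxcr6 (278 and 149 CPM), which direct effector cells into tissue, stayed under 2-fold. Of 11 tissue residency genes at 10 CPM, 4 were higher in CD4 (Bhlhe40, Rgs2, Cd44 and Xcl1) and 1 in CD8. That one was Itgae, the CD103 integrin chain, at 4.50 and 17.2 CPM. Integrin genes Itgb3 (5.42-fold) and Itgav (2.89-fold), whose products pair as the vitronectin receptor, were higher in CD4 with Cd44 (2.27-fold), in a list of 11 with 3 higher in CD4 and 1, Itgae, in CD8.

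The comparison was repeated within cells with and without a UMI of Ccr7 or Lef1, a split chosen after the data were seen. Cells with such a UMI were 45.5% of IR CD4 and 56.5% of IR CD8, unthinned, at median depths of 1477 and 973 retained UMIs over all kept cells. The split does not define a cell type, since in thinned barcodes without a Cd3 UMI Lef1 was in 20.4% in IR CD4 and 31.9% in IR CD8, against 18.2% and 25.7% of cells. In the cells with a Ccr7 or Lef1 UMI 348 and 353 genes were higher in CD4 and CD8, and in the cells without such a UMI 395 and 354. Gzma had log2 ratios of -2.47 and -3.36 in the cells with and without, Ccl5 -1.74 and -2.38, Cd40lg 5.92 and 3.83, and Maf 4.29 and 2.90. Some calls held in 1 of the 2 sets. Itgae was at -2.85 and -0.72, Cd44 at 1.47 and 0.90, and the mitotic gene Birc5 at -0.40 and -1.67.

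Transcription factors were the largest list, with 6 of 25 higher in CD4 and 4 in CD8 (median log2 ratio 0.18). Maf, which encodes c-MAF, a factor of interleukin 4 and interleukin 10 producing helper cells, was at 312 CPM (304 to 321) in IR CD4 and 29.5 CPM (25.7 to 33.7) in IR CD8, 10.6-fold higher. Rora, a nuclear receptor gene of type 2, type 17 and regulatory cells, was at 298 and 70.1 CPM, 4.25-fold higher. In CD8 Id3 (40.1 and 94.9 CPM) and Zeb2 (28.5 and 58.4 CPM) joined Runx3 and Eomes. Tbx21, the T-bet gene, did not separate the subsets at 89.8 and 68.0 CPM, nor did Tox at 198 and 171 CPM. Of 19 cytokine receptors Il2ra and Il12rb2 (2.91-fold) were higher in CD4 and none in CD8.

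**Figure D2:**
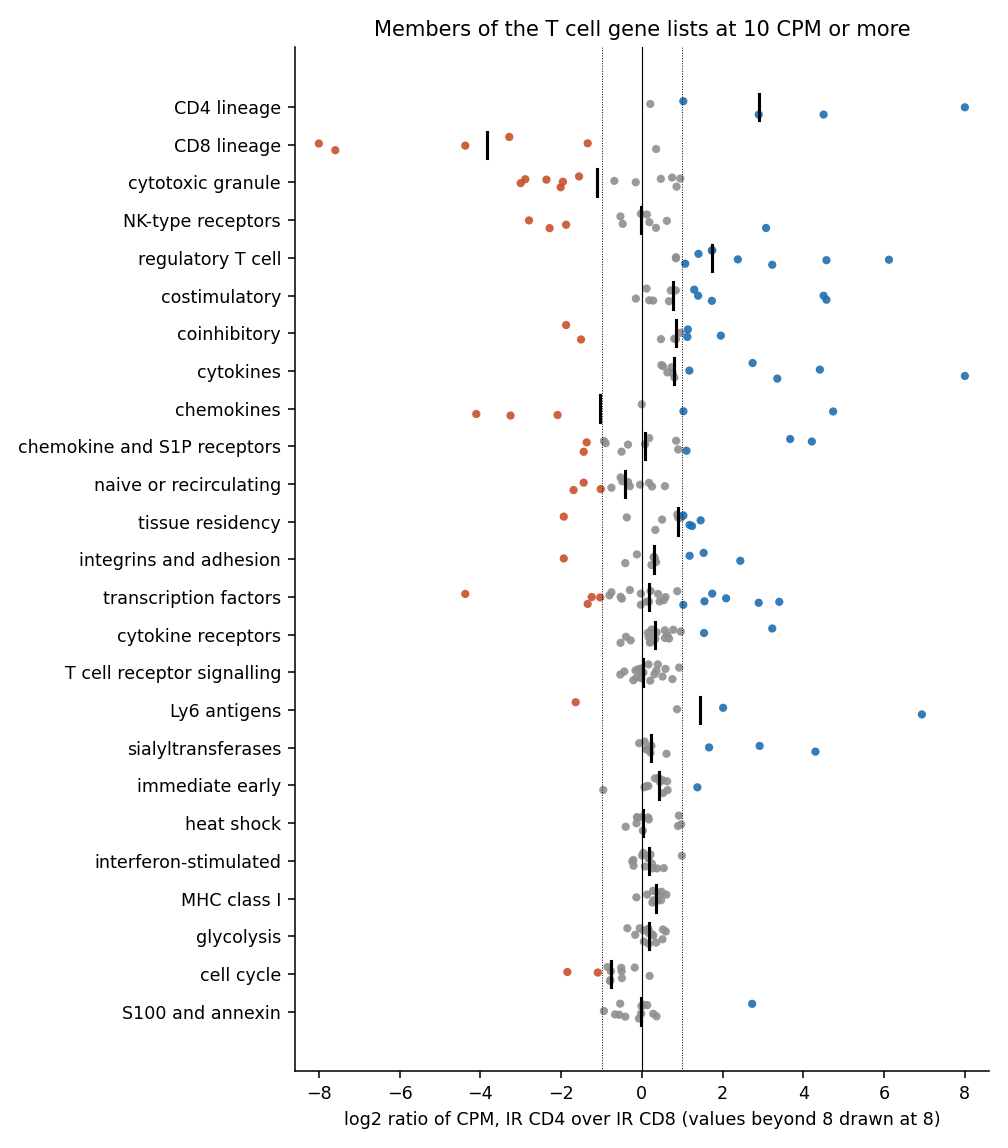
Log2 ratio of CD4 over CD8 in the ischemic kidney (horizontal axis) for each gene list (rows), 1 point per member at 10 CPM or more, called members in colour, the black bar the median of the list, and values beyond 8 drawn at 8. The CD4 lineage list (median 2.89) and the regulatory T cell list (1.74) lie to the right, and the CD8 lineage (-3.83) and cytotoxic granule lists (-1.12) to the left. T cell receptor signalling (0.04) and heat shock genes (0.02) lie at 0. Both lineage lists hold genes of the sort markers, which their medians include.

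Several of the genes with the largest ratios stood outside the fixed roles. On the CD4 side were Ly6c1 (82.9 and 0.677 CPM), Socs2, a feedback inhibitor of cytokine signalling (120.3 and 8.26 CPM), Asb2, a ubiquitin ligase subunit (11.5-fold), the keratin gene Krt83 (11.1-fold), Tbc1d4, a regulator of vesicle transport (9.38-fold), and the potassium channel gene Kcnq5 (380.0 and 48.1 CPM, 7.91-fold). On the CD8 side were Fam241a (49.0 and 517 CPM), the lipocalin gene Lcn4 (12.7 and 105 CPM), the surface receptor gene Cd7 (29.3 and 205 CPM), Tmem108 (6.74-fold) and the long noncoding RNAs Gm44174, Gm43698 and Gm19705. Gm44174 (chromosome 6, 71353035 to 71373284) lies between Cd8b1 and Cd8a and ends inside the Cd8a window shown above, and it had 1 UMI in IR CD4 and 532 in IR CD8, a log2 ratio of -10.31 (-15.61 to -7.82). Gm43698 was at 0.740 and 85.6 CPM. Asb2, Maf, Gm44174, Cd7 and Tmem108 overlap genes on the opposite strand, and how the counting used strand is not given in the sources used here.

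Members of the Ly6 family differed among themselves, with 2 of 4 at 10 CPM higher in CD4 and 1 in CD8. Ly6c1 was 122-fold higher in CD4 and its neighbour Ly6c2, a marker of memory CD8 cells, 3.12-fold higher in CD8 (284 and 884 CPM), and since the pair is alike in sequence both are uncertain. Ly6a, which encodes Sca-1, was at 452 and 112 CPM. Among 10 sialyltransferase genes at 10 CPM, St8sia6 (19.7-fold), St6galnac3 (7.55-fold, 359 and 47.5 CPM) and St3gal2 (3.17-fold) were higher in CD4, and 7 were not called in either direction.

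In several lists of common T cell programmes no gene was called, where 7.36% of all tested genes were, so these counts lie near the background. None of 19 receptor signalling genes was called (median log2 ratio 0.04), Lat standing at 580.0 and 578 CPM and Fyn at 306 and 298 CPM. The same held for 11 heat shock genes (0.02), 13 interferon-stimulated genes (0.17), 11 genes of MHC class I presentation (0.36) and 15 glycolysis genes (0.17). Among 12 immediate early genes Dusp1, a phosphatase that restrains MAP kinases, was 2.59-fold higher in CD4 (1713 and 660.3 CPM), whereas Fos was at 1661 and 1589 CPM and Junb at 8248 and 5346 CPM. Anxa1, the annexin A1 gene, was the called member of the S100 and annexin list (38.7 and 5.82 CPM). Of 11 cell cycle genes Pclaf (15.9 and 57.3 CPM) and Birc5 (17.5 and 37.4 CPM) were higher in CD8, with a list median of -0.77, and Mki67 was at 12 and 16.9 CPM. The Birc5 call was lost in 4 of 15 alternatives. Without the top 5% of barcodes by UMIs in each library, neither Pclaf nor Birc5 met the call rule.

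The share of cells that carried a gene showed how widely each difference was spread. Each cell was thinned to 500 retained UMIs to set the libraries at 1 depth, and no cell was shallower. Cd40lg was in 10.7% (10.1 to 11.3) of IR CD4 and 0.546% (0.380 to 0.758) of IR CD8 cells, and unthinned in 27.9% and 0.982%. Maf was in 11.4% and 1.2%, Il4 in 4.19% and 0%, and Foxp3 in 1.28% and 0%. For Il4 and Foxp3, at 0 of 6413 IR CD8 cells, the exact upper limit is 0.0575%, and a floor of 3 counts equals 0.0468%. Unthinned, Il4 was in 1 and Foxp3 in 3 IR CD8 cells. In the CD8 direction Ccl5 was in 32.8% (31.9 to 33.7) of IR CD4 and 49.3% (48.0 to 50.5) of IR CD8 cells, Nkg7 in 20.1% and 47.5%, and Klrd1 in 6.16% and 25.3%. Unthinned, Ccl5 was in 45.0% and 53.8% of cells, with 12.7 and 30.6 UMIs per positive cell. Gzma was in 0.835% (0.668 to 1.03) and 6.02% (5.45 to 6.63), and Ccl4 in 0.835% and 14.0%. Barcodes without a Cd3 UMI, 452 in IR CD4 and 414 in IR CD8 with medians of 1011.5 and 786.5 retained UMIs, were set beside the cells. They had passed the same gene and mitochondrial filters, and which cells they hold was not tested. In the CD8 library they held Ccl5 in 20.5%, Nkg7 in 14.7% and Klrd1 in 19.1%, all under the cells. Of 26 genes with a share that were called higher in CD8, 5 were at or under their share in these barcodes. They were Ccr7 (29.0% against 24.6% of cells), Fam241a (29.0% against 22.1%), Hbb-bs, 8430422H06Rik and Galnt13. In the CD4 library the barcodes held Cd40lg in 5.09%, under the cells. Of 23 genes called higher in CD4, 10 were at or under their share in such barcodes of IR CD4. These are point values from 452 barcodes, without intervals, and Foxp3 was found in 10 of them. Zbtb16 was in 6.86% of these barcodes against 3.27% of cells, Foxp3 in 2.21% against 1.28%, Rora in 17.9% against 11.3%, Ikzf2 in 8.19% against 6.69% and Tbc1d4 in 5.09% against 2.59%. Il2ra, Icos, Tnfrsf4, Socs2 and Ccrl2 were the others, each less than 1 percentage point apart.

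**Figure D3:**
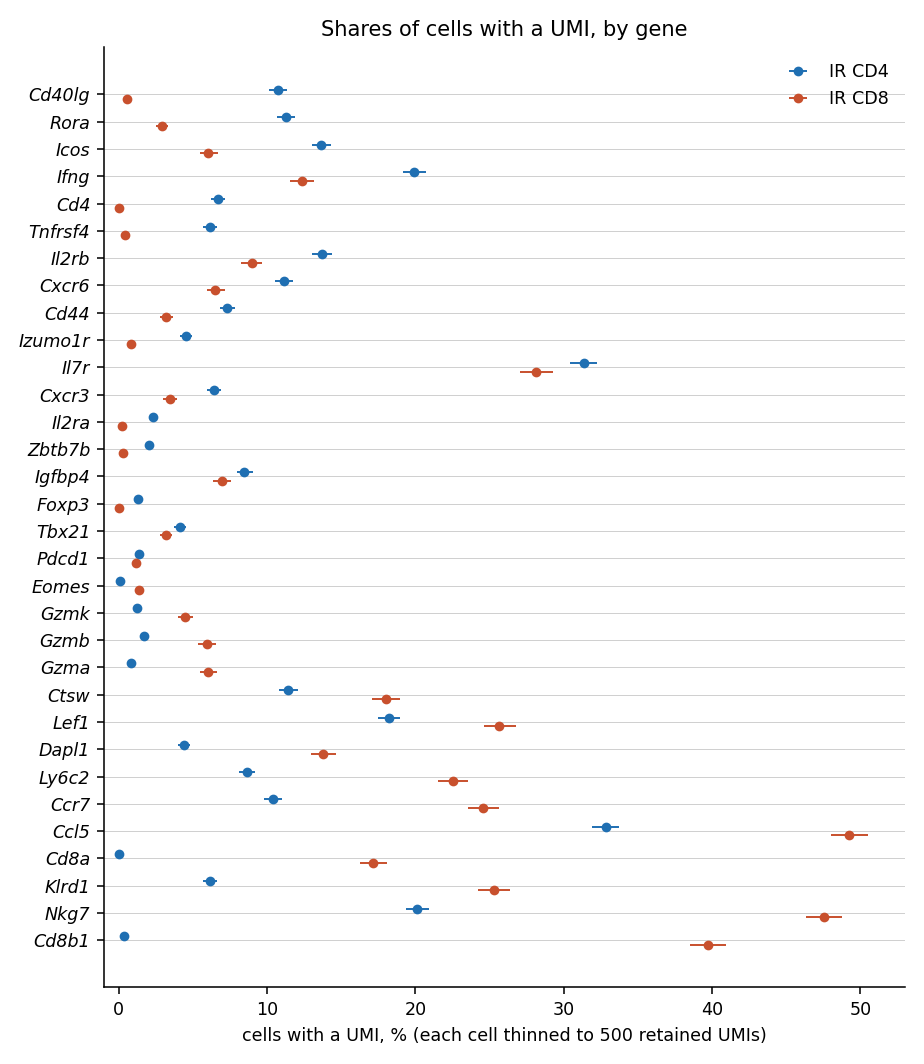
Share of cells with at least 1 UMI (horizontal axis, percent) for single genes (rows) in IR CD4 and IR CD8 cells, each thinned to 500 retained UMIs, with exact 95% binomial intervals as error bars. Cd40lg reaches 10.7% in IR CD4 against 0.546% in IR CD8, and Klrd1 25.3% in IR CD8 against 6.16% in IR CD4.

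Ccl5 was less frequent in IR CD8 cells with a Ccr7 UMI. Thinned, Ccl5 was in 17.9% (16.1 to 19.9) of the 1577 Ccr7+ cells and 59.5% (58.1 to 60.9) of the rest, at median depths of 892 and 999 retained UMIs, and unthinned in 27.9% and 69.2%. The 386 Gzma+ cells had Ccl5 in 96.9% (94.6 to 98.4) against 46.2% (44.9 to 47.5) of the rest, Gzmb in 37.8% (33 to 42.9) against 3.90% (3.43 to 4.42) and Klrd1 in 50.5% against 23.7%. Ccr7 was in 3.11% (1.62 to 5.37) of them against 26.0% (24.9 to 27.1). Gzma+ cells were deeper, at a median of 1330 against 961 retained UMIs before thinning. Ccl3 was in 13% of Ccl4+ and 1.23% of Ccl4-negative cells. In IR CD4, Ccr7 was in 5.43% (4.17 to 6.94) of Cd40lg+ cells and 11% (10.4 to 11.6) of the rest.

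Markers of other cell types were examined for the same libraries. Summed levels of the 9 myeloid genes were 341 and 287 CPM, mostly Cst3 (147 and 139 CPM) and Ctss (164 and 132 CPM). The 5 B cell genes summed to 157 and 133 CPM, of which Ighm gave 149 and 106 CPM, while the other 4 each had the higher CPM in IR CD8 and Pax5 had 2 UMIs in each library. All 4 MHC class II genes at 10 CPM were higher in CD4, Cd74 at 65.0 and 24.1 CPM and H2-Aa at 13.5 and 3.52 CPM, and 1 of the 4 calls held within cells with a Ccr7 or Lef1 UMI. Ms4a1 (3.81 and 13.4 CPM) and Cd79b (2.39 and 10.6 CPM) were higher in CD8. The erythroid list summed to 216 and 427 CPM. Its haemoglobin calls rested on single barcodes, as 2010 of 2178 Hbb-bs UMIs in IR CD4 and 1887 of 1942 in IR CD8 came from 1 barcode each, and so did 166 of the 177 S100a9 UMIs in IR CD4. The endothelial list summed to 103 and 77.4 CPM, nearly all of it Pecam1, which T cells also express, and the tubule and platelet lists to at most 3.07 and 5.41 CPM. With every barcode that held a UMI of Lyz2, S100a8, S100a9, Csf1r, C1qa, C1qb, C1qc, Cd79a, Ms4a1, H2-Aa, H2-Ab1, H2-Eb1 or Cd74 left out, an alternative chosen after the data were seen, 300 genes were higher in CD4 and 345 in CD8, of which 287 and 326 were among the calls above.

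Few T cell receptor variable segments could be compared. Only 2 of 128 Trav and 5 of 35 Trbv segments reached 10 CPM and none 50 CPM. Trbv12-1 (2.33 and 15 CPM), Trav16n (9.39 and 26.5 CPM), Trav16 (4.90 and 13.3 CPM) and Trbv3 (7.12 and 14.4 CPM) were higher in CD8, and none was higher in CD4. Segments of 1 family share sequence, so these levels are uncertain, and the Trbv3 call was lost in 5 of 14 alternatives.

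The same comparison was made in the normal kidney, whose control CD4 and CD8 libraries held 9518 and 9685 kept cells and had been counted with another software version. There 234 of 8952 genes were higher in CD4 (2.61%) and 151 in CD8 (1.69%), 4.3% together. Of the 313 ischemic CD4 genes 136 (43.5%) were also higher in CD4 in the normal kidney, 58.1% of the normal set. Of the 333 CD8 genes 83 (24.9%) were also higher in CD8 there, 55.0% of the normal set. The ratio had the same sign in the normal kidney for 304 of the 313 and 231 of the 333 genes. It was under 1.2-fold or opposite there for 20 and 131 genes. Across 8260 genes tested in both, the log2 ratios had a Pearson r of 0.85 and a Spearman rho of 0.63, given as a description since genes are not replicates. Side by side, Gzma was at 11.3 and 240.3 CPM in control CD4 and CD8 and 88.1 and 705 CPM in IR, Ccl5 at 1172 and 7321 against 3357 and 14270.3 CPM, and Ccr7 at 31.2 and 80.5 against 237 and 643 CPM. Tnfrsf4 was at 68.4 and 4.65 against 180.3 and 7.58 CPM, and Zbtb16 at 217 and 2.14 against 73.2 and 0.271 CPM.

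Among genes called higher in CD4 at 50 CPM or more, the ratio moved furthest from its normal value toward CD4 for Ccl1, Ccrl2, Krt83, Asb2 and Zbtb16. Ccrl2, a chemokine-binding receptor gene, had a log2 ratio of 2.77 in IR (84.8 and 12.5 CPM) and 0.78 in control (15.8 and 9.23 CPM). Krt83 was at 3.48 and 1.80, and Asb2 at 3.53 and 1.98. For Ccl1, at 4.74 and 1.30, 1 barcode held most UMIs as described above. Zbtb16 rested on 2 UMIs in IR CD8, and the interval of its ischemic ratio (6.22 to 11.13) covers the normal value of 6.66. Among genes called higher in CD8 at 50 CPM or more, those that moved furthest toward CD8 were Hbb-bs, Galnt13, Gm50306, Srrm4 and 8430422H06Rik, all under 10 CPM in both control libraries. With 1 library per group, condition, library and software version cannot be told apart in these differences.

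**Figure D4:**
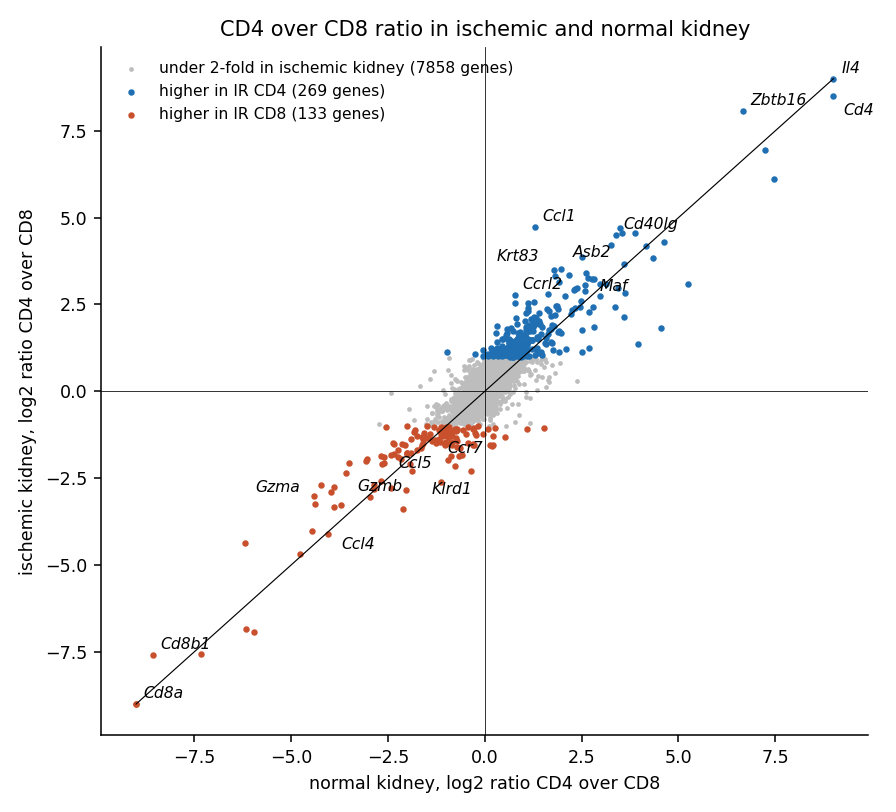
Log2 ratio of CD4 over CD8 in the normal kidney (horizontal axis) against that in the ischemic kidney (vertical axis) for 8260 genes at 10 CPM or more in both, with genes called in the ischemic kidney in colour and values beyond 9 drawn at 9. The 269 genes higher in CD4 and 133 higher in CD8 lie mostly on the same side in both kidneys, with Il4 and Cd40lg at upper right and Cd8a and Cd8b1 at lower left.

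The CD8 calls fell into 2 sets by their level in the normal kidney. Of 333, 200 were under 10 CPM in both control libraries, against 44 of 313 CD4 calls. These 200 genes together gave 46001 UMIs in IR CD4, 54963 in IR CD8 and 41740 in the third ischemic library, IR DN (CD4- CD8- T cells), which is 2619, 7442 and 8669 CPM and 4.47, 8.57 and 10.6 UMIs per cell. Their median ratio of CD4 to CD8 UMIs was 0.84 (quartiles 0.732 and 0.942), and that of the other 133 CD8 genes was also 0.84 (0.590 and 1.03), a value that the 2-fold rule bounds from above in both sets. Over all 514 tested genes under 10 CPM in both control libraries, called or not, it was 1.53, against 2.55 over the other 8260. Gm50306, a long noncoding RNA, had 3730, 4284 and 3704 UMIs in the 3 libraries, and the sodium-potassium pump interacting gene Nkain2 1409, 1597 and 1489. The rule used 4 of the 6 libraries, so levels of 293 and 413 CPM in control CD4 and CD8 restate the choice of genes. The DN libraries, which the rule did not use, held the set at 349.6 CPM in control and 8669 CPM in IR. Hbb-bs, described above, is 1 of the 200. Barcodes of the ischemic libraries without a Cd3 UMI held the set at 8330 CPM in IR CD4 and 14704 CPM in IR CD8, above the cells. The same held for the 44 CD4 calls under 10 CPM in both control libraries. They were at 3529.7 CPM in such barcodes of IR CD4 against 830.5 CPM in cells, and at 1493 against 223 CPM in IR CD8. The 269 CD4 calls at 10 CPM or more in a control library were also higher there. They stood at 27964 against 23656 CPM in IR CD4 and at 15254 against 8116 CPM in IR CD8. All 514 tested genes under 10 CPM in both control libraries stood at 21413 against 7422 and at 27132 against 12382 CPM. The other 133 CD8 genes, among them the coreceptors, granzymes and chemokines, were at 10548 CPM in IR CD4 and 37069 CPM in IR CD8, and at 7325 and 17983 CPM in the barcodes without a Cd3 UMI. The cause of the difference between the DN libraries was not tested.

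**Figure D5:**
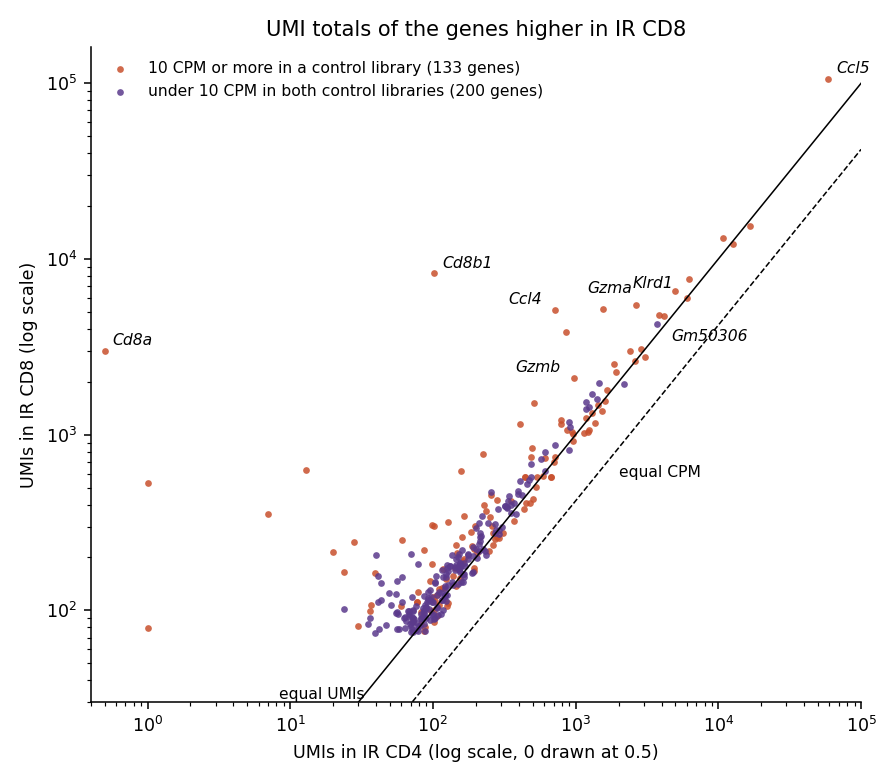
UMIs of the 333 genes higher in CD8, in IR CD4 (horizontal axis, log scale) and IR CD8 (vertical axis, log scale), with 0 drawn at 0.5, the solid line equal UMIs and the dashed line equal CPM. The median ratio of UMIs was 0.84 both for the 200 genes under 10 CPM in both control libraries and for the other 133, whose quartiles lie wider apart (0.590 and 1.03 against 0.732 and 0.942) and which include Cd8a and Cd8b1 far above the solid line.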

How the data were processed

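Single-cell RNA sequencing (10x Genomics 3' chemistry) of sorted kidney T cells was analysed in the IR CD4 and IR CD8 libraries. The control CD4, control CD8, IR DN and control DN libraries were set beside them. The deposited matrices hold raw UMI counts by gene and barcode. The authors had aligned and counted the reads against mm10 in Cell Ranger at its defaults and had not normalized the counts. File headers name version 6.0.1 for the IR and 5.0.1 for the control libraries. Use of strand and introns is not given in the sources used here. Groups were taken from the sample titles.

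Barcodes were filtered as stated in the report (500 genes, 20% mitochondrial, 1 Cd3 UMI). Before the Cd3 filter 10753 IR CD4 and 6827 IR CD8 barcodes passed. No doublet caller was run, and removal of the top 5% of barcodes by UMIs was an alternative. The 104 removed features were 13 mitochondrial genes, 90 ribosomal protein genes and Malat1. UMIs were summed per library and given as CPM. A gene was called at 10 CPM or more in the higher library and at least 2-fold, with 0 set to 3 counts. Sums have exact Poisson intervals, and shares of cells and ratios Clopper-Pearson intervals. No test was run, since each group had 1 library and cells are not replicates. The methods of the study compared single cells. Calls and intervals were run on simulated Poisson counts. This is the model behind the intervals, so the simulation cannot show how they hold where UMIs cluster in few cells.

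The named genes were the sort markers, the 15 largest ratios in each direction at 50 CPM without T cell receptor segments, the 4 members furthest from 0 in each list, a set of genes for shares of cells, and in each direction the 5 calls furthest from their ratio in the normal kidney. Other members named as examples were picked for their role after their values were seen. The rule for segments asked for 50 CPM, which none reached, so those at 10 CPM are given. The members and the 35 lists were chosen with earlier results of these data known. Coordinates are GENCODE M21 (GRCm38), where 32235 of 32285 features (99.8%) matched. Alternatives were other cell filters, thinning, the removed features kept, scaling by TMM in edgeR 4.0.16 under R 4.3.3, a mean over cells, other limits on CPM and fold, shared barcodes removed, and cells with or without a Ccr7 or Lef1 UMI. Some list members, and an alternative that used one, are not reported here. Those added after the data were seen are named as such.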

Additional observations from a re-analysis of the deposited data

Results flagged for a closer look

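Of the genes called in both kidneys, 2 went in opposite directions. Ehbp1 had a log2 ratio of CD4 over CD8 of -1.07 in the ischemic kidney (20.9 and 43.9 CPM) and 1.09 in the normal kidney (18.3 and 8.57 CPM). Tsc22d1 had -1.06 in the ischemic kidney (14.2 and 29.5 CPM) and 1.53 in the normal kidney (19.5 and 6.76 CPM). With 1 library per group the difference between the kidneys was not tested.

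The 200 genes higher in IR CD8 but under 10 CPM in both control T cell libraries also had signal in barcodes that the comparison left out. They stood at 14704 CPM in the 414 IR CD8 barcodes without a Cd3 UMI, at 8330 CPM in the 452 such barcodes of IR CD4, and at 8669 CPM in the IR DN library, against 349.6 CPM in the control DN library. The 44 CD4 calls under 10 CPM in both control libraries were likewise higher in those barcodes. They stood at 3529.7 CPM against 830.5 CPM in cells of IR CD4, and at 1493 against 223 CPM in IR CD8. So were the 269 CD4 calls at 10 CPM or more in a control library, at 27964 against 23656 CPM and 15254 against 8116 CPM. The 200 genes were chosen as low in control CD4 and CD8, so their levels there are no comparison. The cause was not tested.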

How the results depend on the processing

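No paired analysis was possible because each group had 1 library, and no replicate could be left out. The counts of genes higher in CD4 and CD8 (313 and 333) and called alike in both kidneys (136 in CD4 and 83 in CD8) moved by over 1.5 times under 6 choices. With the removed features kept in the total, 188 genes were higher in CD8 and 53 in CD8 in both kidneys. Without a minimum CPM the counts were 1438 and 1796, and 520 and 448 in both kidneys, and at a minimum of 50 CPM 118 and 97, and 44 and 30. At 1.5-fold they were 852 and 595, and 363 and 201. Among genes at 10 CPM or more in a control library 133 were higher in CD8, and with the interval wholly beyond 2-fold 198 were higher in CD4, 2 choices made after the data were seen. The other alternatives gave 291 to 395 genes in CD4 and 326 to 421 in CD8, with the lowest CD4 and highest CD8 count where no Cd3 UMI was required. Among called genes named in the text, the sign of the log2 ratio reversed for 3. S100a9 (2.05) went to -1.01 with at least 3 Cd3 UMIs, -3.01 in cells without a Ccr7 or Lef1 UMI and -0.79 without its top barcode. Hbb-bs (-1.08) went to 0.53 without the top 5% of barcodes, 0.99 in cells without those UMIs and 0.36 without its top barcode, and Hbb-bt (-1.83) to 0.48 and 0.26 without the top 5% and without its top barcode. Leaving out top barcodes and the split by Ccr7 or Lef1 were chosen after the data were seen. Of 94 called named genes, 11 fell under 2-fold in at least 1 alternative. Of 1190 list counts 120 moved, and of 128 shares 100, since shares depend on depth. MHC class II calls in CD4 went from 4 to 1 without the top 5% of barcodes and in cells with those UMIs, and cell cycle calls in CD8 from 2 to 0 without the top 5%, 7 in cells without those UMIs and 1 in cells with them. Depth limits genes near the floor, where 3 counts equal 0.171 CPM in IR CD4 and 0.406 CPM in IR CD8.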
